A study of Homo sapiens with 12 samples.

Results

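The control cells of both knockdown experiments were described here: 6 of the 12 RNA-seq libraries, 3 from each experiment, chosen as the libraries labelled NC. All 6 came from MDA-MB-231, an established human triple-negative breast cancer cell line grown from a pleural effusion. The NC cells received a negative control siRNA, and their counterparts, the other 6 libraries, received siRNA against NONO (a paraspeckle and RNA-binding protein) or against PKM2 (the pyruvate kinase isoform of proliferating cells, encoded by PKM). All libraries were poly(A)-selected and sequenced as pairs of 150-base reads. The labels give the control cells as wild type and number them as repeats, without saying that the repeats were separate cultures, so every p-value measures only the spread between these libraries, which may be technical. Each experiment was deposited as a table of its own, and the control group and the experiment are therefore the same split. A difference between the control groups cannot be told apart from a difference in culture, library preparation, sequencing run or annotation.

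The genes were joined on their identifier and kept where both tables gave the same length. Of 60558 identifiers present in both tables (60623 and 60671 genes), 58993 had equal length, which is 97.416%, and 1565 did not. The joined genes held 92.7 to 92.844% of each library's counts. Among the genes that fell out and were not analysed here were ACTB, CD44, FN1, COL1A1, COL1A2, FOXA1, MYC, VWF and CD3E. Total estimated counts ranged from 19861762 to 20981712 in the NONO-experiment controls and from 24097948 to 28455268 in the PKM2-experiment controls. The root mean square log2 distance over the 9421 genes with a mean above 10 CPM (counts scaled by library size) was 0.1194 to 0.246 between controls of the same experiment and 0.6506 to 0.6745 between controls of different experiments, so no pair of libraries from different experiments was as close as any pair from the same one.

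MDA-MB-231 belongs to the mesenchymal-like, claudin-low group of breast cancer lines: it lacks the estrogen and progesterone receptors and HER2 amplification, carries little of the junction machinery of luminal cells and relies on EGFR and RAS signalling. Its invasive growth is accompanied by vimentin, AXL and matrix proteases, and its energy metabolism by glycolysis as well as respiration. Control cells of a knockdown study show this baseline state, and every fold change of the knockdown is read against it.

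The marker genes matched the label in both groups. ESR1, the estrogen receptor, lay between 0.01 and 0.12 TPM (a level per gene length, scaled to a common total), and PGR, the progesterone receptor, between 0.02 and 0.41 TPM. ERBB2, which encodes HER2, was at 27.5, 29.7 and 35.2 TPM in the NONO-experiment controls and at 26.6, 26.3 and 27.0 TPM in the PKM2-experiment controls. EGFR was at 74.1 to 77.9 and 72.4 to 76.7 TPM. CDH1 (E-cadherin) and the basal keratins KRT5 and KRT14 were listed at 0 in all 6 libraries, while TP63, the basal lineage factor, reached at most 0.04 TPM and KRT17 at most 0.34 TPM. Of the mesenchymal markers, VIM (vimentin) stood at 3787 ± 78.4 TPM (SD, n = 3) and 3383 ± 67.3 TPM, the receptor tyrosine kinase AXL at 340.5 ± 4.06 and 370.0 ± 2.23 TPM, and the repressor of E-cadherin ZEB1 at 43.9 ± 3.93 and 43.9 ± 3.78 TPM. CDH2 (N-cadherin) was nearly silent at 0.04 to 0.18 TPM. The cells kept luminal keratins: KRT8 was at 169.0 ± 2.88 and 185.6 ± 4.65 TPM, KRT18 at 224.6 ± 28.6 and 228.0 ± 3.83 TPM, and KRT19 at 52.2 ± 7.35 and 52.6 ± 1.36 TPM, whereas GATA3, the luminal transcription factor, was at 3.97 ± 0.562 and 3.40 ± 0.227 TPM. Claudins were low but present, with CLDN3 at no more than 2.34, CLDN4 at 10.8 to 17.4 and CLDN7 at 17.7 to 35.1 TPM. The line is known to have lost part of chromosome arm 9p: MTAP stayed at or below 0.04 TPM, and the neighbouring cell cycle inhibitors CDKN2A and CDKN2B were listed at 0 in all 6 libraries.

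**Figure D1:**
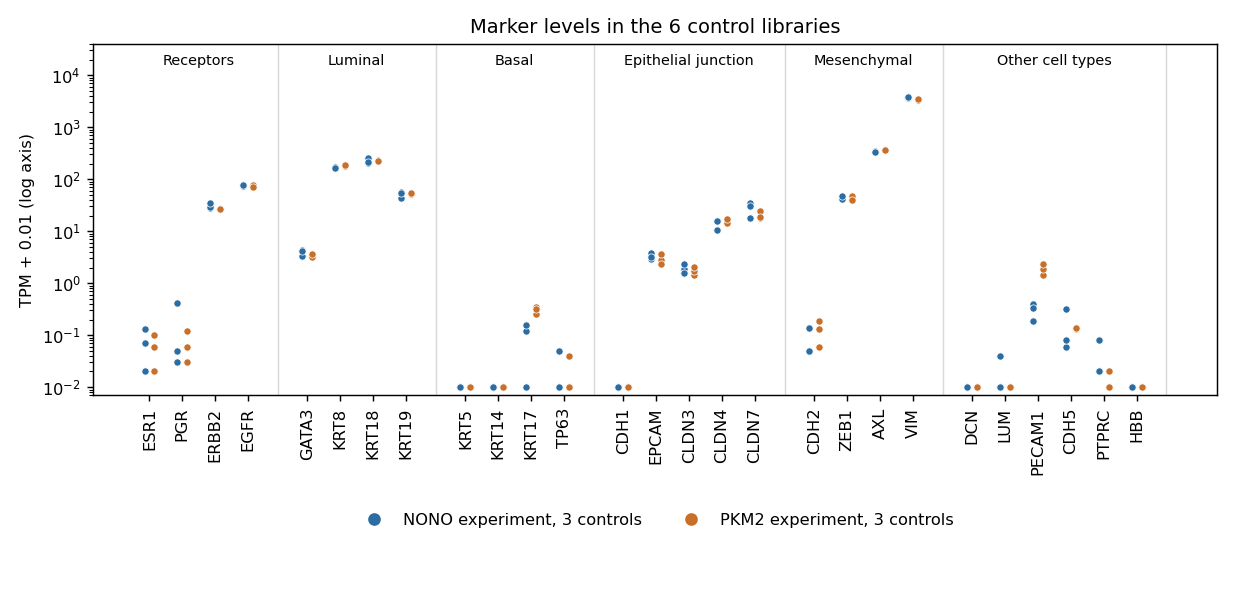
TPM of receptor, luminal, basal, junction, mesenchymal and other cell type markers in each of the 6 control libraries (log axis, 0.01 added so that values of 0 can be drawn; blue, 3 controls of the NONO experiment; orange, 3 controls of the PKM2 experiment). VIM, AXL, KRT8, KRT18 and EGFR were high in all 6 libraries, CDH1, KRT5 and KRT14 were at 0, and the TPM values of the low-level PECAM1 did not overlap between the groups.

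Markers of other cell types were near 0. Of the 10 fibroblast markers 7 could be joined, and their summed level was 1.23 to 2.30 TPM in the NONO-experiment controls and 1.28 to 1.85 TPM in the PKM2-experiment controls, with DCN at 0 in all 6 libraries and PDGFRB at no more than 0.76 TPM. Endothelial markers summed to 3.27 to 6.18 and 4.58 to 5.05 TPM over 6 of 8 genes. PECAM1, an endothelial adhesion molecule, read 0.18 to 0.38 TPM in the first group and 1.42 to 2.31 TPM in the second, yet its counts differed by only 0.18 on the log2 scale (adjusted p = 0.728, edgeR). Of the blood cell markers, PTPRC (CD45) reached at most 0.07 TPM and HBB was at 0. The list's summed level of 123 to 129 TPM in the first group and 135 to 138 TPM in the second was mostly CD68, at 122 to 128 and 133 to 135 TPM. CD68 is a lysosomal protein that many cultured lines express.

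NONO stood at 426, 389 and 401 CPM in the NONO-experiment controls and at 415, 396 and 413 CPM in the PKM2-experiment controls, a log2 difference of 0.01 ± 0.05 (SE; adjusted p = 0.897). PKM stood at 2392, 2343 and 2366 CPM and at 2552, 2488 and 2606 CPM, a log2 difference of 0.11 ± 0.04 (adjusted p = 0.0472), with no overlap between the groups. In their own experiments NONO fell by 2.57 and PKM fell by 3.33 on the log2 scale after the respective siRNA. GAPDH, the common reference gene, differed by 0.10 between the control groups (adjusted p = 0.0761).

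By TPM, transcripts of the mitochondrial genome, a metallothionein and a few cytosolic housekeeping genes led the baseline transcriptome. Of the 20 genes with the highest mean TPM, 11 were encoded by the mitochondrial genome. The first was MT-ATP8, a subunit of ATP synthase, at 55978 ± 501.4 TPM in the NONO-experiment controls and 36973 ± 544 TPM in the PKM2-experiment controls. MT-CO2 (cytochrome oxidase subunit) followed at 18910 ± 1817 and 16751 ± 743 TPM, MT-ND4L (complex I subunit) at 16469 ± 722 and 15895 ± 419 TPM, and MT-CO3 at 15096 ± 721 and 13113 ± 335 TPM. The highest nuclear gene by TPM was the zinc-binding metallothionein MT2A, at 18159 ± 597 and 9983 ± 493 TPM. In counts MT2A (1503 and 1447 CPM) and MT-ND4L (415 and 1075 CPM) lay far below EEF1A1 (10068 and 8578 CPM). The ferritin light chain FTL came next by TPM with 8922 ± 617 and 8044 ± 26.1 TPM. The elongation factor EEF1A1 (6316 ± 81.6 and 6820 ± 79.2 TPM), GAPDH (4371 ± 98.2 and 4457 ± 175 TPM), RPS18 and RPL41 of the ribosome, the actin-binding proteins PFN1 and TMSB4X, and VIM completed the nuclear part of the list.

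A mean of at least 1 TPM was reached by 12987 joined genes in the NONO-experiment controls and by 13258 in the PKM2-experiment controls, of which 10903 and 11009 were protein-coding. At 100 TPM the numbers were 1399 and 1423, and at 1000 TPM they were 117 and 126. In both groups 12415 genes reached 1 TPM, and 1415 reached it in 1 group only. Of the summed TPM over joined genes, the 37 mitochondrially encoded genes took 18.6 ± 0.515% and 15.9 ± 0.274%, the 78 cytosolic ribosomal protein genes 13.3 ± 0.192% and 13.8 ± 0.0195%, the 9 metallothioneins 2.08 ± 0.0671% and 1.16 ± 0.0591%, the ferritin chains 1.28 ± 0.0592% and 1.16 ± 0.000694%, and 20 glycolysis genes 1.44 ± 0.0199% and 1.57 ± 0.0316%. Taken over counts, mitochondrially encoded genes held 5.70 ± 0.371% and 5.82 ± 0.143% of counts, ribosomal protein genes 3.76 ± 0.0369% and 4.43 ± 0.0467%, and metallothioneins 0.177 ± 0.00595% and 0.166 ± 0.00434%. The lower mitochondrial and metallothionein levels of the PKM2-experiment controls on the TPM scale were thus small on the count scale or in the other direction.

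The scales differed because counts had been divided by other lengths in each table, although the listed gene lengths were equal. From count and TPM together, the divisor behind each TPM value can be recovered up to a constant, set here over genes longer than 4000 bases. For MT-ATP8, listed with 207 bases, the divisor was 6, 7 and 7 bases in the NONO-experiment controls and 34, 28 and 33 bases in the PKM2-experiment controls. Its counts rose from 191, 241 and 247 CPM to 729, 612 and 747 CPM while its TPM fell. MT-ATP8 overlaps MT-ATP6 in the mitochondrial genome and is carried on the same mRNA, so the split of reads between them is uncertain as well. For MT2A the divisor was 132 to 146 bases in the first group and 239 to 253 bases in the second, so that 1457 to 1546 CPM and 1415 to 1465 CPM, a log2 difference of -0.05 (adjusted p = 0.330), became the TPM values given above, which did not overlap. RPS29, a small ribosomal subunit protein, showed the same pattern, with 73.6 to 84.2 CPM against 155 to 173 CPM but 2463 to 2721 TPM against 2227 to 2287 TPM.

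Short genes as a class were counted higher in the PKM2-experiment controls. The median log2 difference in counts was 1.10 for the 176 tested genes of up to 500 bases, 0.23 for 1193 genes above that and up to 1000 bases, and 0.07 for genes up to 2000 bases, and it fell to -0.05 for genes of more than 3000 and up to 5000 bases and -0.10 for the 2972 genes over 5000 bases. Over all 14378 genes tested, 15.2% were called higher in the PKM2-experiment controls and 13.3% lower. At the same limit, an adjusted p below 0.05 (edgeR), 70.5% of the shortest class were called higher and 4.55% lower, and of the longest 6.06% were called higher and 23.9% lower. The median log2 ratio of the divisors moved the same way, from 0.64 in the shortest class (58 genes with a usable value) to -0.04 in the longest. A fit that entered the divisor as an offset was added after these values were seen. With it the medians ran from 0.29 to -0.04. Results below are counts without the offset unless said otherwise, and the offset value is given for many of the genes and lists described.

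In number, 2180 genes were called higher in the PKM2-experiment controls (15.2%) and 1907 lower (13.3%). By the cutoffs of the study's methods (fold over 2 and an unadjusted p below 0.05), 1011 genes were differentially expressed (DEGs), 7.03% of those tested, 671 higher and 340 lower. The median over all tested genes was -0.01. The same cutoffs applied to each knockdown against its own controls gave 411 of 13894 genes for NONO siRNA (2.96%) and 3019 of 14553 for PKM2 siRNA (20.7%). Those contrasts share the control libraries with the present one, and the percentages are set side by side without a test. All 3 counts rest on the joined genes that passed the low-count filter and on the edgeR test, and another gene set or test may give others. Of the 1011 genes, 907 could be tested between the 2 sets of knockdown libraries, which come from the same 2 tables but are other libraries. Of the 1011, 69% were also DEGs of the same sign there. Over all 14160 genes tested there, 24.5% were DEGs in either direction. The shared genes made up 20.1% of the 3471 DEGs found there. That contrast also holds the effects of both siRNAs, so the agreement is not one of the controls alone. With the length offset 983 genes were DEGs, and 75.1% of the 1011 were among them with the same sign.

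Most of the large differences lay outside ordinary named protein-coding genes. Of 11569 protein-coding genes with a gene name, 280 (2.42%) were DEGs, 152 higher and 128 lower, although 3140 (27.1%) were called at an adjusted p below 0.05. Among read-through genes, which are annotated across 2 neighbouring genes and share their exons, 47 of 75 (62.7%) were DEGs, 46 of them higher in the PKM2-experiment controls. The share was 58.2% of 189 protein-coding genes with a clone-based name, 35.1% of 547 pseudogenes and 19.1% of 1998 RNA genes or genes of unmatched type. A gene was all-or-none between the groups when every library of one held at most 3 counts and every library of the other at least 50. This held for 54 genes in favour of the PKM2-experiment controls, 29 of them protein-coding, and for 13 in favour of the NONO-experiment controls, 6 of them protein-coding. The knockdown libraries of the same tables showed the same pattern for 38 of the 54 and 7 of the 13.

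PTPRT (ENSG00000196090), a receptor-type tyrosine phosphatase, was among the all-or-none genes. It had 0 counts in each of the 3 NONO-experiment controls and 998, 895 and 993 in the PKM2-experiment controls, at least 246-fold higher when 3 counts per library are taken as the floor. Its knockdown libraries repeated this, with 0 counts in all 3 libraries treated with NONO siRNA and 971, 905 and 771 in those treated with PKM2 siRNA. The HLA class I pseudogene HLA-Z (ENSG00000235301) had 0 against 923, 873 and 861 counts (at least 227-fold), the pseudogene PSPHP1 0 against 162, 155 and 161 (at least 40.8-fold), and TBC1D3E, a member of a recent primate gene family of near-identical copies, 0 against 252, 221 and 232 (at least 60.1-fold). HLA-Z is listed with 75 bases in both tables, but the divisor behind its TPM was 4396 to 4441 bases. HFM1, a meiotic DNA helicase, rose from 2, 2 and 5 counts to 1315, 699 and 590 (log2 difference 7.75 ± 0.47, adjusted p = 4.9e-07), and the last 3 values spread more widely than those of any gene just named. HFM1 is listed with 4899 bases, but the divisor behind its TPM was 204 to 217 bases in the PKM2-experiment controls. Its counts there may thus stem from a short part of the gene, which was not tested.

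The sums over each read-through gene and its component genes are given here beside the members. A sum has to move less on the log2 scale than a member that starts near 0 counts, so that contrast shows nothing by itself. STX16-NPEPL1 had 2, 5 and 1 counts in the NONO-experiment controls and 1992, 1428 and 1747 in the PKM2-experiment controls. Over the same libraries STX16, a syntaxin of the Golgi, went from 181, 199 and 202 CPM to 99.2, 113 and 120 CPM, and NPEPL1 from 29.4, 34.7 and 34.9 CPM to 23.2, 23.2 and 23.7 CPM. Their sum differed by only -0.16 on the log2 scale. UBE2F-SCLY (0, 1 and 0 against 309, 387 and 341 counts, at least 89.3-fold) accompanied a change of -0.79 in SCLY, the selenocysteine lyase, and a sum that moved by -0.05. TPTEP2-CSNK1E (7, 0 and 0 against 766, 571 and 600 counts) accompanied a change of -0.30 in the clock kinase CSNK1E, with a sum that moved by -0.01. For ZNF511-PRAP1 (0 against 267, 274 and 246 counts, at least 67.4-fold) the sum moved by 0.10, and for EEF1E1-BLOC1S5 (0 against 169, 140 and 119 counts, at least 36.5-fold) by 0.31, with neither component lower (EEF1E1 0.33, BLOC1S5 0.03). EEF1AKMT4-ECE2 had 2, 0 and 0 against 532, 503 and 523 counts, at least 133-fold higher, with its partner ECE2 at 0 throughout and the other partner not joined, so that its family has no sum. In 4 of the 5 complete families the sum moved by between -0.16 and 0.10, and in EEF1E1-BLOC1S5 by 0.31. Whether reads had moved between members of a family was not tested.

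A sum was also taken for a processed copy of the most abundant elongation factor and its parent gene. EEF1A1P5 had 22, 33 and 22 counts in the NONO-experiment controls and 46020, 35191 and 42217 in the PKM2-experiment controls (log2 difference 10.27 ± 0.10). EEF1A1 itself went from 10240, 10060 and 9904 CPM to 8541, 8609 and 8584 CPM, a log2 difference of -0.23 ± 0.03 (adjusted p = 4e-04). The sum of the pair was 1.02, 1.02 and 1.00% of counts in the first group and 1.02% in each library of the second. WASH5P, annotated as a transcribed processed pseudogene, and the near-identical WASHC1 moved in opposite directions. The WASH complex, to which the WASHC1 protein belongs, promotes actin nucleation on endosomes. WASH5P fell from 2430, 2791 and 2915 counts to 225, 159 and 152, while WASHC1 rose from 164, 244 and 223 counts to 2463, 2354 and 2436. Their sum still moved by -0.53.

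**Figure D2:**
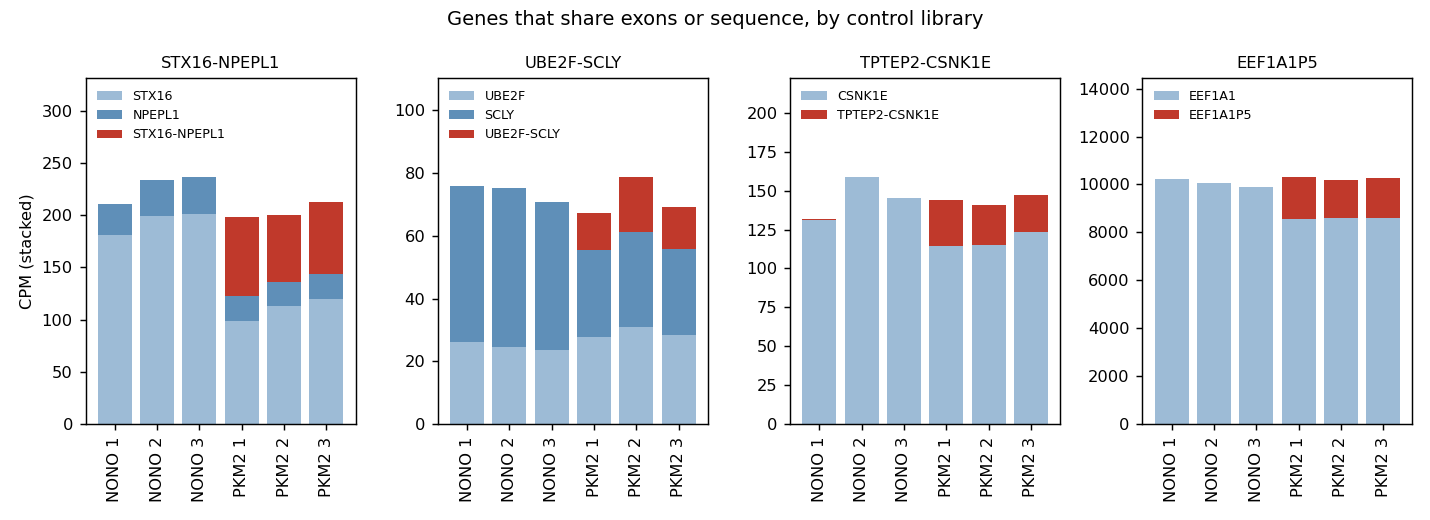
CPM of genes that share exons or sequence, stacked by control library (blue shades, component or parent genes; red, the read-through gene or pseudogene). The red part was almost absent in the 3 NONO-experiment controls and present in all 3 PKM2-experiment controls. Bar heights were similar in the families drawn, but a sum has to move less than a member that starts near 0. Families not drawn include EEF1E1-BLOC1S5, WASH5P with WASHC1 and LTB4R2 with LTB4R, whose sums moved by 0.31, -0.53 and -2.21 on the log2 scale.

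In the opposite direction, LTB4R2, a leukotriene B4 receptor, had 347, 340 and 359 counts in the NONO-experiment controls and 0 in the others, at least 151-fold lower. LTB4R, the overlapping gene of the sister receptor, went from 31.0, 37.4 and 35.2 CPM to 11.5, 9.52 and 13.2 CPM, and the pair's sum still differed by -2.21. The pseudogenes TATDN2P2 (168, 175 and 159 counts against 0, at least 72.5-fold lower) and VDAC1P2 (45, 61 and 59 against 0) also disappeared. The antisense RNA CYP1B1-AS1 went from 715, 647 and 675 counts to 16, 20 and 17 (log2 difference -5.62). Protein-coding genes named in this direction were CDRT4 (-4.34), SLX1B (-3.91), a subunit of a structure-specific endonuclease with an identical copy, and TUT1 (-3.34), the terminal uridylyltransferase of U6 RNA. MAFG, a small MAF partner of NRF2, had 2464, 2673 and 2577 counts against 174, 461 and 73 (-3.78 ± 0.40, adjusted p = 4.66e-05). ZNF28, a zinc finger gene, had 427, 443 and 447 counts against 62, 56 and 20 (-3.61), but only -0.52 with the length offset, where it was no longer called. TM4SF19-AS1 (-3.64) and the histone pseudogene HIST2H3DP1 (-3.52) rested on fewer than 100 counts in every library.

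A further rule for protein-coding genes was applied after the values had been seen. It asked for a fold over 2 and an adjusted p below 0.05, with the same sign, in the count fit, in the fit with the length offset and between the knockdown libraries, and left out read-through genes. It held for 44 genes, 14 higher and 30 lower. For genes without a usable divisor in 1 group, the offset fit was bound to repeat the count fit, so passing it was no further criterion. PTPRT (12.74 in the count fit and 12.76 with the offset), TBC1D3E, HFM1 and LTB4R2 (-11.64 and -11.62) were such genes. Besides PTPRT, TBC1D3E, HFM1 and WASHC1, the higher ones included APC2, a relative of the APC tumour suppressor, at 7.66, 5.23 and 5.03 CPM against 53.4, 58.5 and 51.4 CPM (log2 difference 3.19 ± 0.13, adjusted p = 2.52e-08). DPF3, a subunit of BAF chromatin remodelling complexes, was at 6.07, 5.64 and 6.09 CPM against 13.2, 12.6 and 12.4 CPM (1.10, and 3.30 with the offset). The divisor of DPF3 was 4121 to 4607 bases in the NONO-experiment controls and 942 to 1083 bases in the others. That of APC2 was 9000 to 9021 bases and 4451 to 4532 bases. The groups did not overlap for either of these genes. The lower ones were of many kinds, and those named next were not tested as a group. NR2F6, an orphan nuclear receptor, was at 59.8, 54.7 and 48.6 CPM against 12.02, 3.17 and 3.40 CPM, a log2 difference of -3.11 ± 0.35. PIK3R2, a regulatory subunit of PI3-kinase, was at 70.0, 43.1 and 52.4 CPM against 6.74, 11.8 and 14.5 CPM. FAM53B, a regulator of nuclear beta-catenin, was at 49.8, 44.8 and 43.3 CPM against 11.8, 4.25 and 6.49 CPM. The remaining lower genes included the adaptor proteins DOK3 (-3.33), LIME1 (-2.82) and SHB, the lipid kinase PIP5K1B (-2.34) and the decoy receptor TNFRSF6B (-1.01). FOS and ID1, also among them, are described below. So were CDRT4, NPIPA9, AGAP9, ZNF587, ZNF432 and ZNF37A among the lower genes. The rule kept genes that overlap or nearly match others, such as LTB4R2, LTB4R and SLX1B (lower) and TBC1D3E and WASHC1 (higher).

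Over all genes 15.2% were called higher and 13.3% lower, with a median of -0.01. Every list count without the offset from here on stands beside these shares. With the length offset 1664 of 14378 genes were called higher and 1481 lower, 21.9% together. Every list count with the offset stands beside these numbers. Of 27 tested interferon-stimulated genes, 9 were called higher in the PKM2-experiment controls and 1 lower, with a median of 0.36. With the length offset 5 were called higher and 3 lower, with a median of 0.26. Type I interferon acts through a complex with STAT2 and IRF9, which binds a repeated GAAA element in the promoters of effector genes such as the IFIT, OAS and IFITM families. Double-stranded RNA in the cytosol also induces part of this set. The sequences below show the element in 4 members called higher and in HERC5, which did not pass the test, in RefSeq promoters of GRCh38.p14, with every match to GAAANNGAAA or its reverse complement in capitals (overlapping matches run together).
IFIT1, chr10:89392487-89392549, plus strand: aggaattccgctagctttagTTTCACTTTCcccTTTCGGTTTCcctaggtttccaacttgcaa
IFIT3, chr10:89327821-89327904, plus strand: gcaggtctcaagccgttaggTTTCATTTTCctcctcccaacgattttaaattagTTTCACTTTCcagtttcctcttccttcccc
IFITM1, chr11:313980-314029, plus strand: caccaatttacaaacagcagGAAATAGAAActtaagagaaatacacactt
ISG15, chr1:1013364-1013419, plus strand: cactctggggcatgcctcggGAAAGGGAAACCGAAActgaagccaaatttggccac
HERC5, chr4:88456974-88457074, plus strand: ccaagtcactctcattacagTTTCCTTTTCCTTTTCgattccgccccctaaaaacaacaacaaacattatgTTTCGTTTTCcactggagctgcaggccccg

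Over the 250 bases before the start, 1061 of 35116 promoters held this pattern (3.02%), and 18 of the 30 list members with a promoter sequence did (60%). The match is a description of the letters and was not tested for binding.

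OASL, a 2'-5'-oligoadenylate synthetase-like antiviral protein, had the largest called difference of the list, with 2.13, 2.22 and 2.34 CPM in the NONO-experiment controls and 5.44, 6.79 and 6.45 CPM in the PKM2-experiment controls (log2 difference 1.48 ± 0.17, adjusted p = 6.99e-05). IFITM1, a membrane protein that blocks virus entry, was at 33.5, 47.0 and 49.2 CPM against 84.4, 84.9 and 92.4 CPM (1.01 ± 0.11, adjusted p = 6.89e-05). The RNA-binding effector IFIT1 was at 10.8, 8.74 and 10.9 CPM against 16.9, 16.3 and 17.1 CPM (0.72 ± 0.11, adjusted p = 0.000494). For all 3 genes every PKM2-experiment control lay above every NONO-experiment control. They were picked for their large called differences, so this adds little to the calls. The neighbouring IFIT2 (0.71) and IFIT3 (0.58), OAS2 (1.09, adjusted p = 0.0444, not called without the first NONO-experiment library) and IFI44 (0.57) were also called higher, and OAS2 (adjusted p = 0.0505) and IFI44 (0.106) missed the limit with the offset. ISG15, the ubiquitin-like modifier, was at 61.7, 53.3 and 53.1 CPM against 72.5, 68.1 and 73.1 CPM (0.35), and IFITM3 differed by 0.36. Both are short genes, and with the length offset their differences were 0.06 and 0.05 and no longer called, whereas OASL (1.66), IFITM1 (0.89), IFIT1 (0.79), IFIT2 (0.76) and IFIT3 (0.61) were called with it as well.

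HERC5, the ligase that attaches ISG15 and the carrier of 3 matches above, did not pass the test, at 19.5, 23.5 and 23.1 CPM against 23.3, 21.6 and 22.2 CPM (0.02, adjusted p = 0.887). STAT2, a transducer of the signal, was lower by the same test, at 69.8, 83.9 and 86.5 CPM against 61.4, 61.8 and 65.8 CPM (-0.35, adjusted p = 0.0063). The knockdowns are set beside these values because their folds are read against these controls. IFIT1 differed from its own controls by 0.80 after NONO siRNA and by 2.22 after PKM2 siRNA, OASL by 0.57 and 2.40, and IFITM1 by -0.10 and -0.02, neither of which passed the test.

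FOS, the immediate early gene of the AP-1 family, was lower in the PKM2-experiment controls, at 7.44, 8.85 and 7.82 CPM against 1.72, 2.15 and 1.66 CPM (-2.13 ± 0.17, adjusted p = 4.16e-06). Its relative FOSB was at 3.01, 2.74 and 2.49 CPM against 1.30, 1.03 and 1.54 CPM (-1.08 ± 0.24, adjusted p = 0.00659). The mRNA decay factor ZFP36 (-0.60) and JUNB (-0.44) were called lower too, JUNB not with the length offset (adjusted p = 0.0815). FOSL1, another AP-1 member, went the other way, from 613 to 630 CPM to 716 to 729 CPM (0.23, adjusted p = 0.000961), but at 0.02 with the length offset it was no longer called. Among 17 tested immediate early genes, 1 was called higher and 5 lower, with a median of -0.17, and with the offset 0 were higher and 4 lower. The shares over all genes, without the offset, were 15.2% higher and 13.3% lower.

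ID1, an inhibitor of helix-loop-helix factors and a target of BMP and TGF-beta signalling, was at 130, 121 and 127 CPM against 59.98, 51.8 and 65.2 CPM, a log2 difference of -1.09 ± 0.07 (adjusted p = 1.2e-06). The TGF-beta-induced matrix protein TGFBI (-0.47) and the latent TGF-beta binding protein LTBP3 (-0.75) were lower as well, but not with the offset (adjusted p = 0.0847 and 0.211). Of 19 tested TGF-beta response genes 5 were called lower and 0 higher, and 2 were lower with the length offset. The collagenase MMP1 stood at 67.1, 70.3 and 66.1 CPM against 35.4, 39.2 and 35.4 CPM (-0.89 ± 0.06, adjusted p = 1.05e-06), and the stromelysin MMP3 at 5.74, 3.83 and 3.71 CPM against 2.87, 2.06 and 1.503 CPM (-1.04 ± 0.27). The membrane-anchored protease MMP14 was lower by a smaller step, from 279, 320 and 316 CPM to 245, 246 and 259 CPM (-0.29). MMP1 differed from its own controls by 1.53 after NONO siRNA and by 2.63 after PKM2 siRNA, and its level in the knockdown libraries of the 2 experiments differed by 0.18 (PKM2 minus NONO). Of 14 tested matrix proteases and inhibitors, 2 were called higher and 4 lower. For this list and the TGF-beta list the shares over all genes were 15.2% higher and 13.3% lower.

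Beside 13.3% called lower and 15.2% higher over all genes, hypoxia-inducible genes were called lower in 8 of 21 cases and higher in 0. Their median was -0.25 (3 lower with the length offset, median -0.17). Among them was CA9, the carbonic anhydrase induced by HIF-1, at 0.55, 1.91 and 2.03 CPM against 0.65, 0.40 and 0.36 CPM (-1.66 ± 0.49, adjusted p = 0.0268). The oxidoreductase ERO1A was at 117, 137 and 128 CPM against 92.9, 97.4 and 94.7 CPM (-0.42), and the MYC antagonist MXI1 (-0.51) and the lipase inhibitor ANGPTL4 (-0.79) were lower too. With the offset CA9 (adjusted p = 0.125) and ANGPTL4 (0.0826) missed the limit. The circadian repressor BHLHE40 was at 20.8, 48.7 and 45.4 CPM against 19.5, 15.6 and 21.7 CPM (-1.02 ± 0.26, adjusted p = 0.0127). For CA9 and BHLHE40 the first NONO-experiment library lay within the range of the other group, unlike ERO1A, where the groups did not overlap. Of 15 tested clock genes 1 was called higher and 4 lower with a median of -0.32 (0 and 3 with the offset, median -0.14), among them PER1 (-0.65) and PER2 (-0.81), and PER2 was at -0.02 with the length offset and was not called without the first NONO-experiment library.

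The first NONO-experiment control stood apart from its 2 repeats. A chi-square comparison of counts per degree of freedom gave 10.2 and 8.25 for the pairs that include it and 2.47 for the remaining pair, against 3.32 to 4.18 among the PKM2-experiment controls. Over 9421 genes with a mean above 10 CPM, the median SD of log2 CPM was 0.083 in the NONO-experiment controls and 0.0547 in the PKM2-experiment controls, and 68.8% of genes had the larger SD in the former. EGR1, an immediate early factor, was at 8.64, 47.6 and 39.6 CPM in the NONO-experiment controls and 4.44, 32.8 and 6.61 CPM in the PKM2-experiment controls. TXNIP, the arrestin induced by glucose, was at 66.6, 316 and 270 CPM and at 82.6, 181 and 97.3 CPM. In both genes the first library of the NONO group was low and the second library of the PKM2 group was high, so that the groups overlapped.

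GDF15, a stress-induced cytokine, was at 14.9, 89.1 and 59.3 CPM and at 16.3, 26.0 and 24.4 CPM, DDIT4, an inhibitor of mTORC1, at 42.6, 139 and 123 CPM and at 47.5, 102 and 69.9 CPM, and the cytokine IL6 at 14.3, 39.0 and 33.8 CPM and at 14.0, 24.9 and 13.7 CPM. None of these 5 genes passed the test between the groups, with log2 differences of -1.16 for EGR1 (adjusted p = 0.239), -0.86 for TXNIP (0.188), -1.30 for GDF15 (0.056), -0.48 for DDIT4 (0.364) and -0.74 for IL6 (0.117). These 5 genes were picked after their spread had been seen, and the first NONO-experiment library was low in each. Leaving that library out was therefore bound to favour calls, and the following values are no separate evidence. Without it all 5 passed the test, at -1.62 (0.0241), -1.29 (0.000487), -1.74 (4.84e-06), -0.85 (0.00455) and -1.06 (0.000706). The number of hypoxia genes called lower was then 13 in place of 8, of TGF-beta response genes 9 in place of 5, of clock genes 10 in place of 4, of immediate early genes 8 in place of 5, of inflammatory genes 5 in place of 0 and of YAP and TAZ targets 7 in place of 4, while 14 G1/S and replication genes in place of 6 were called higher. Without the first NONO-experiment library the number called over all genes also rose from 4087, as given in the closing section. The gains of the lists were not tested against that general rise. With the second PKM2-experiment library left out as well, 13 immediate early genes and 8 inflammatory genes were called lower. FOS, ID1, MMP1, NUSAP1 and the IFIT genes did not turn on that library, since their values in it lay with those of its repeats.

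The ribosomal and nuclear respiratory chain lists had median listed lengths of 787.5 and 1187 bases. Of 78 cytosolic ribosomal protein genes 55 were called higher and 2 lower (median 0.30), and with the length offset 25 were higher and 14 lower (median 0.06). RPS21 was at 104, 110 and 113 CPM against 344, 324 and 360 CPM (1.66 ± 0.05), and at 0.73 with the offset, and RPL31 at 168, 170 and 175 CPM against 378, 368 and 374 CPM (1.13), and at 0.90 with the offset. RPS29 turned from 1.08 to -0.20 and RPL39 went from 0.93 to 0.11. Of 32 nuclear-encoded respiratory chain genes 21 were called higher and 0 lower (median 0.23), and 11 and 2 with the offset (median 0.07). The complex I subunit NDUFA1 was at 17.3, 20.1 and 20.1 CPM against 47.4, 44.3 and 46.1 CPM (1.26, and 0.55 with the offset), the cytochrome oxidase subunit COX7A2 differed by 0.96 (0.75), and COX6A1 turned from 0.27 to -0.15. Among 13 mitochondrially encoded protein genes 8 were called higher and 1 lower, and 3 and 3 with the offset. MT-CO1, the catalytic subunit of cytochrome oxidase, was the called lower one (-0.29, and -0.30 with the offset), and MT-ND6, encoded on the other strand, was higher in both fits (0.85 and 0.41).

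Against 15.2% called higher and 13.3% lower over all genes, 6 of 28 G1/S and replication genes were called higher and 0 lower (median 0.08). The count of higher ones was 14 without the first NONO-experiment library. Of 30 G2/M and mitosis genes 4 were higher and 9 lower (median -0.08), but 6 higher and 5 lower with the length offset. The spindle protein NUSAP1 was the most different of the latter, at 175, 175 and 180 CPM against 88.5, 97.8 and 90.8 CPM (-0.94 ± 0.05, adjusted p = 1.51e-07, and -0.76 with the offset). PRC1, which bundles microtubules in the spindle midzone, was lower by a log2 difference of -0.64 (-0.26 with the offset), and CKS2, a partner of cyclin-dependent kinases, was higher by 0.62 (0.31). Targets of YAP and TAZ were summed at 2438 to 2680 TPM and 2442 to 2779 TPM, with 3 of 21 called higher and 4 lower (3 and 0 with the offset, 4 and 7 without the first NONO-experiment library), and CCN1, the highest of them, differed by -0.04.

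Matrix and adhesion genes moved both ways. Of 25 collagens and matrix glycoproteins 5 were called higher and 8 lower, beside 15.2% and 13.3% over all genes. TNC (tenascin C) was at 263, 273 and 286 CPM against 196, 193 and 196 CPM (-0.49 ± 0.04), the laminin chain LAMA3 at 132, 196 and 197 CPM against 98.7, 105 and 112 CPM (-0.74), and the matricellular protein SPARC at 211, 191 and 196 CPM against 257, 244 and 246 CPM (0.32). All 3 stayed called with the offset. KRT10, a keratin of differentiating epidermis, was at 26.8, 29.3 and 24.1 CPM against 45.2, 44.1 and 48.5 CPM (0.78 ± 0.08, and 1.14 with the offset). AXL was called higher (0.19, adjusted p = 0.00347), and VIM (-0.14, adjusted p = 0.0151) and ERBB2 (-0.18, adjusted p = 0.0151) were called lower, ERBB2 not with the offset (adjusted p = 0.164), and all 3 differences were small beside those of the genes above. EGFR (-0.08, adjusted p = 0.174) and KRT8 (0.12, adjusted p = 0.0516) did not pass the test.

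Of 19 glycolysis genes 3 were called higher and 2 lower (median 0.03), near the 15.2% and 13.3% over all genes. With the offset 8 of the 19 were called higher and 1 lower (median 0.06), a larger share higher than the 1664 of 14378 genes in that fit. Of 24 cholesterol synthesis genes 6 were higher and 1 lower (median 0.08). The gene called lower was INSIG1, the sterol-regulated brake of SREBP processing, at 82.4, 138 and 125 CPM against 73.5, 58.1 and 80.8 CPM (-0.70 ± 0.17, adjusted p = 0.00972), and the phosphomevalonate kinase PMVK led the higher ones (0.67). Of 19 inflammatory genes 1 was called higher and 0 lower, but 1 and 5 without the first NONO-experiment library. Of 17 small nucleolar RNA host genes 8 were higher and 3 lower (4 and 0 with the offset), the higher ones including ZFAS1 (1.04, and 0.56 with the offset) and SNHG9 (2.09 ± 0.37, and 1.35). Replication-dependent histone genes, whose mRNAs mostly lack poly(A) tails, could be joined in 49 of 89 cases, the largest loss of any list, and of 19 tested 2 were higher and 4 lower.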

How the data were processed

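RNA from MDA-MB-231 cells was sequenced after poly(A) selection by the authors, who deposited 1 table per experiment with estimated counts and TPM for every library. The submitters' processing notes name fastp, HISAT2, StringTie, RSEM, DESeq2, edgeR and limma and the build hg19, without versions. The estimated counts need not be whole, because reads matching several genes or transcripts are shared out by the counter. The strand setting is not given in the sources used here. The TPM values deposited by the authors were used for levels. They sum to 999999 to 1000000 per library in the NONO-experiment table and to 994217 to 994882 in the other. Columns holding the authors' fold changes and p-values were not used. All per-library columns were mapped, and 0 were left out.

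The 6 NC libraries were compared on genes with equal identifier and length. Estimated counts were rounded, genes filtered with filterByExpr, scaled by TMM and tested with edgeR 4.0.16 (glmQLFit, glmQLFTest; R 4.3.3), with Benjamini-Hochberg adjustment over all genes tested. Differences are PKM2-experiment minus NONO-experiment controls, on the log2 scale. CPM values use TMM-scaled library sizes. An exact permutation test of a single value cannot go below p = 0.1 with 3 against 3 libraries. DEGs had a fold above 2 and an unadjusted p below 0.05. Gene classes came from GENCODE gene types matched by identifier and promoters from RefSeq (GRCh38.p14). No pair of libraries agreed within sampling noise. Scripts were tested on simulated data.

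Members, lists and tests were chosen with earlier results of these data known. Named genes were the 20 highest by mean TPM, the 12 largest differences in each direction among called genes with a fold above 2 and at least 5 TPM in a group (clone-based names left out), lineage markers, up to 4 called members and the highest member of each list described, and NONO, PKM and GAPDH. The length offset, the contrast between knockdown libraries, the rule behind the 44 protein-coding genes and the joint omission of 2 libraries were chosen after seeing the data, as were EGR1, TXNIP, GDF15, DDIT4 and IL6. Alternatives were other scalings and filters, DESeq2 1.42.0, a limit of 1.5-fold, length and GC trends (GC known for 98.93% of tested genes), a replicate block and leaving out each library. Whether equal replicate numbers pair libraries was checked by the correlation of their deviations from the group means. Some members of the lists are not reported here.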

Additional observations from a re-analysis of the deposited data

How the results depend on the processing

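Between the control groups the number of DEGs was 1011 and rose to 1753 without the filter on low counts. The number called at an adjusted p below 0.05 was 4087, fell to 2488 at 0.01 and to 859 (607 higher, 252 lower) when tested against a fold of 1.5. Leaving out each library in turn gave 1060 to 1203 DEGs and 2894 to 5517 called genes, the highest without the first NONO-experiment library. DESeq2 gave 966 DEGs. Of 162 named genes called, 158 stayed called with the same sign under DESeq2, 142 to 159 when a library was left out, and 116 with the length offset, which ended 34 calls and turned 12. With the offset the turned values were -0.573 for MT-ATP8, -0.026 for MT-ND4L, -0.043 for MT-ATP6, -0.056 for MT-ND3, 0.136 for EEF1A1, -0.016 for KRT7, 0.052 for OCLN, -0.013 for RFC3, -0.305 for MT1A, -0.226 for ARRDC2, -0.146 for COX6A1 and -0.197 for RPS29, and the list medians that changed sign were 0.047 for fatty acid synthesis, -0.239 for nuclear-retained RNAs, -0.026 for mitochondrially encoded protein genes, 0.010 for YAP/TAZ targets, -0.024 for iron handling, -0.002 for lysosomal genes and 0.001 for receptors. With a length trend, or a GC and length trend, subtracted, MT-ATP6 was at -0.207 and -0.206, TMSB4X at -0.047 and -0.078, IFITM3 at -0.047 and -0.053, COX6A1 at -0.134 and -0.115, and ISG15 at -0.059 and -0.031. The endothelial median was -0.095 without the third PKM2-experiment library, and ran from there to 0.151 when other libraries were left out. The cause of these changes was not tested.

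The same-numbered libraries of the 2 experiments had correlations of 0.289, 0.119 and 0.091 in their deviations, so the third missed the limit of 0.1 and the numbers were not taken as pairing, although every library correlated best with its own number. With a replicate block 1015 genes were DEGs and 4360 were called, and of the 162 named genes OAS2 alone lost its call. What depth limits was not tested by varying it.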
